A study of Mus musculus with 12 samples.

Results

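The secretases are the proteases that cut the amyloid precursor protein APP. The genes described here are Adam10, Adam17, Bace1, Bace2, Psen2, Ncstn, Aph1a, Aph1b and Psenen, 9 of the 55487 genes in the gene table. They were chosen by name as enzymes or enzyme subunits that cleave APP. The choice did not use their values, but earlier results of these data were known. Each was found by its Ensembl identifier, and 8 of the 9 passed the filter on low counts that left 16233 genes to test. Whole retina was collected from WT mice (strain label C57BL/6J) and from 5xFAD mice (strain label Tg6799) at 1 and at 6 months of age. The 5xFAD line models Alzheimer disease and carries human APP with disease mutations under control of the Thy1 promoter, which is active mainly in neurons. Each of the 4 groups (WT at 1 month, 5xFAD at 1 month, WT at 6 months, 5xFAD at 6 months) had 3 libraries of polyadenylated RNA. No treatment is given in the labels, and the 5xFAD label names no background strain. The labels do not say that the libraries came from separate animals, so p-values here capture only how much these samples vary, which may be technical.

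APP can be cut along either of a pair of routes. An alpha secretase of the ADAM family, Adam10 or Adam17, cuts within the amyloid beta sequence and releases a soluble ectodomain. The beta secretase Bace1, a membrane-bound aspartyl protease, makes instead the cut that starts amyloid beta production, and Bace2 is its homologue. The membrane stub that either cut leaves is then cleaved by the gamma secretase, a complex of a catalytic presenilin (Psen2 encodes a presenilin), nicastrin (Ncstn), an Aph1 protein (Aph1a, Aph1b) and the small subunit Pen-2 (Psenen). All of these enzymes have many substrates other than APP, among them Notch receptors, cadherins and sodium channel subunits, and they act in normal neural tissue.

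Several results below turn on which sequence a count was assigned to, so the stretches that distinguish the transcripts are shown first. They come from the GENCODE M21 transcripts on GRCm38 and are written 5′ to 3′. The full-length transcript Bace1-201 contains exon 6, which lies in the coding sequence at chr9:45858400-45858501 on the plus strand and which Bace1-202 skips. In the first line below capitals mark the 102 bases of that exon (34 codons), with 15 bases of each neighbouring exon in lower case. The codons GACAGTGGG inside it spell Asp-Ser-Gly, an active-site motif of aspartyl proteases. The second line is the junction that Bace1-202 has in its place. The third line is from Bace1-204, a transcript of the retained-intron class, and its capitals are the last 60 of the 165 bases (chr9:45852723-45852887) that Bace1-201 does not contain.
Bace1-201 exon 6: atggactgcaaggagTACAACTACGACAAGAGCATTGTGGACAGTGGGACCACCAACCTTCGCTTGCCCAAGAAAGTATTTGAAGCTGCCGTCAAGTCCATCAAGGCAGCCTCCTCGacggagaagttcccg
Bace1-202 junction: atggactgcaaggagacggagaagttcccg
Bace1-204 boundary: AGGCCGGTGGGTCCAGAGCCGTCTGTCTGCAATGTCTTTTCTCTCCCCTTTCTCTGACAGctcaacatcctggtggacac

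Aph1b has a neighbour with a near-identical coding sequence, Aph1c, and their reads can be divided between them. Over 773 aligned coding bases, 748 (96.8%) were identical, with an unbroken identical run of 341 bases. The coding part is 774 of the 4910 bases of the Aph1b transcript. Over the whole transcripts 3717 of 4531 aligned bases (82.0%) were identical, and 1053 further positions faced a gap. The most divergent 90-base coding window (coding bases 11 to 100 of Aph1b, chr9:66795266-66795355, and chr9:66834499-66834588 for Aph1c, both on the minus strand) is shown with its 9 mismatches in capitals.
Aph1b: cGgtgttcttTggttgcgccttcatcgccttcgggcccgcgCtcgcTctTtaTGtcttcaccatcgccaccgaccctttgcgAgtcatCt
Aph1c: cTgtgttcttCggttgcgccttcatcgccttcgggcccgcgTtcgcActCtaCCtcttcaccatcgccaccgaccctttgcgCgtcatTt

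Among the 8 tested secretase genes, Bace1 and Aph1b were higher in 5xFAD than in WT at 1 month, and no gene passed the test at 6 months. Bace1 rose 1.43-fold and Aph1b 1.59-fold at 1 month, and both genotype differences changed between the ages by the interaction test. Between 1 and 6 months in 5xFAD, Bace1 and Aph1b fell and Psenen rose, while no secretase gene passed between the ages in WT. Genes were tested with edgeR's quasi-likelihood test on counts, with Benjamini-Hochberg adjustment over all 16233 genes, and called at an adjusted p below 0.05. Levels are given as CPM (counts per M counts) with TMM scaling, values after ± are SD over 3 libraries for levels, and SE for log2 fold changes.

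The number of secretase genes called was near the background share of all tested genes in each comparison. At 1 month 2 of 8 were called, both higher, where 19.6% of all tested genes were called and 10.7% were called higher and 8.91% lower. At 6 months 0 of 8 were called against 6.38% of all genes (2.48% higher, 3.89% lower), with 1 at an unadjusted p below 0.05 (Bace1) and 0 by DESeq2. With age in WT 0 of 8 were called against 10.5% of all genes (6.01% higher, 4.49% lower), with 3 at an unadjusted p below 0.05 (Bace1, Aph1a and Psenen) and 1 by DESeq2 (Bace1). No background share is given for the unadjusted and DESeq2 counts. With age in 5xFAD 3 of 8 were called (1 higher and 2 lower) against 23.2% of all genes (10.8% higher, 12.4% lower), and the interaction called 2 of 8, both lower, against 25.0% (11.7% higher, 13.3% lower). The median log2 fold change of the 8 genes was 0.04 at 1 month (all genes -0.04), -0.06 at 6 months (0.00), 0.01 with age in WT (-0.01) and -0.18 with age in 5xFAD (0.03).

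**Figure D1:**
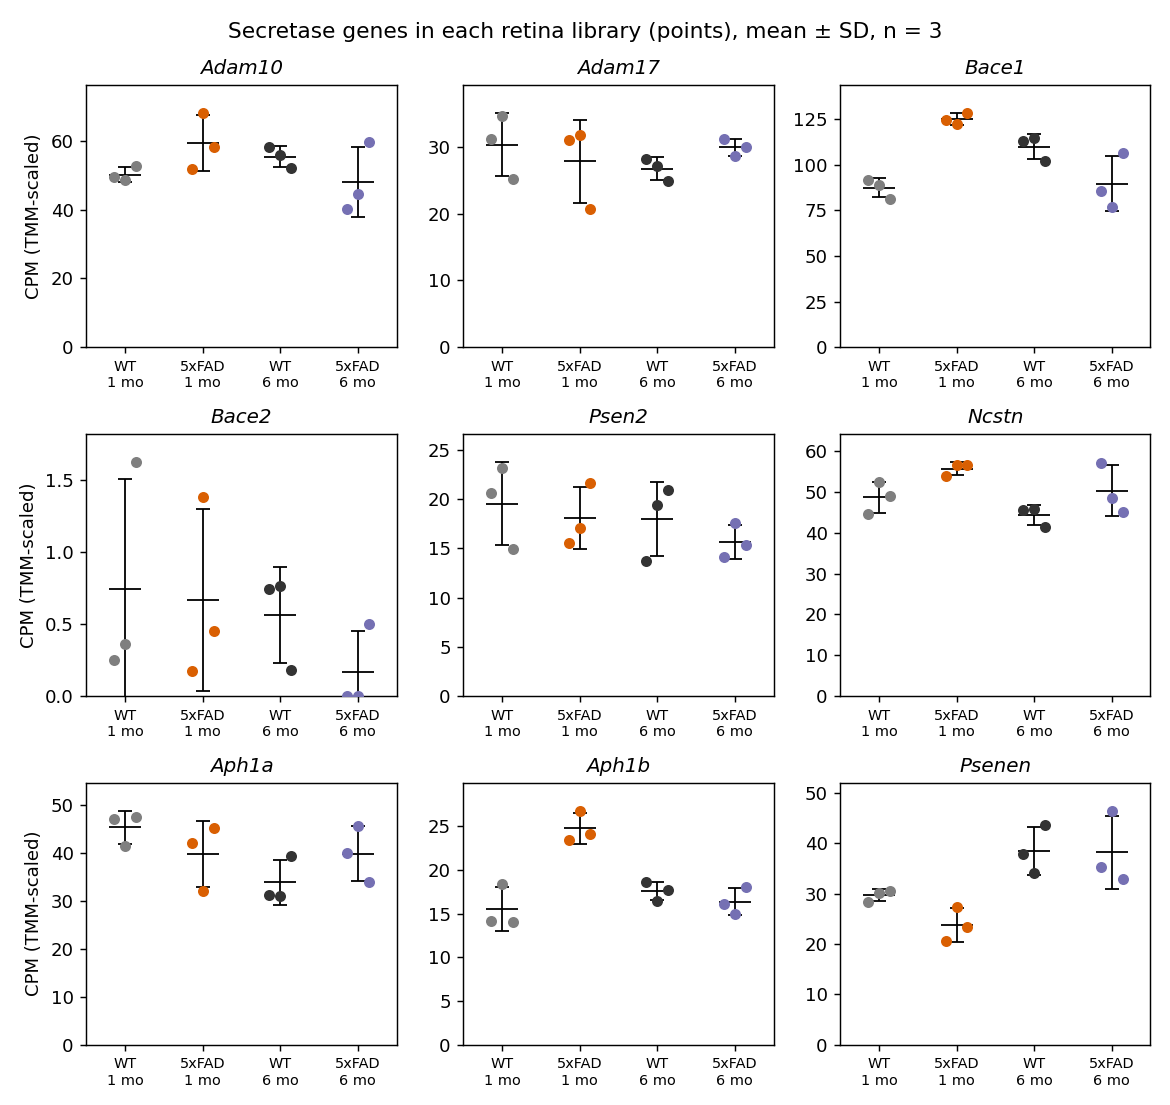
Level of each secretase gene in CPM (y axis, from 0) in the 12 libraries, by group (x axis). Points are libraries, and bars are the mean ± SD of 3. Bace1 and Aph1b in 5xFAD at 1 month lie above every library of WT at 1 month, and Bace2 stays below 2 CPM throughout.

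Levels per transcript length (TPM, the share per M transcripts, from the transcript table and annotated lengths) place the genes in order. Over all 12 libraries the mean was 102 TPM for Psenen, 50.7 for Bace1, 48.2 for Ncstn, 45.6 for Aph1a, 27.5 for Adam10, 23.6 for Psen2, 16.6 for Adam17, 8.52 for Aph1b and 0.286 for Bace2. Psenen stood above every other member in each group, with no overlap between libraries of a group. The next 3, Bace1, Ncstn and Aph1a, overlapped as neighbours in WT at both ages. In 5xFAD at 1 month Bace1 (65.4 to 68.9 TPM) lay above Ncstn (51.5 to 60.2 TPM), whereas in 5xFAD at 6 months it stood 4th with 40.6 ± 8.38 TPM and overlapped Aph1a. In WT at 1 month Bace1 was also 4th, at 40.5 ± 5.35 TPM.

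Facts of the libraries bear on several of these values. Expected counts per library ran from 10.9 to 19.6 M, and ribosomal RNA genes took 0.0280% to 1.11% of them. Markers of rods, cones, bipolar, amacrine, horizontal, ganglion and Muller cells were all at 1 CPM or more, as the retina label implies. The mean transcript length behind a count was 3719 ± 121 nt in WT at 1 month, 4213 ± 16.7 nt in 5xFAD at 1 month, 3910 ± 182 nt in WT at 6 months and 3674 ± 50.2 nt in 5xFAD at 6 months. Counts in 5xFAD at 1 month therefore came from longer transcripts than in the other groups. When the tested genes were divided into 3 equal classes by transcript length, at 1 month 27.0% of the longest class were called higher in 5xFAD and 1.31% of the shortest. With age in 5xFAD 30.4% of the longest class were called lower and 21.7% of the shortest called higher. Bace1 (mean 5096 nt), Aph1b (4917 nt), Adam10 (4534 nt) and Adam17 (4235 nt) belong to the longest class, Psen2 (1805 nt) and Psenen (704 nt) to the shortest, and Ncstn and Aph1a to the middle one. The called secretase genes and overlapping genes are therefore also given after removal of each library's trend on length and GC content, and the pathway genes by their counts.

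**Figure D2:**
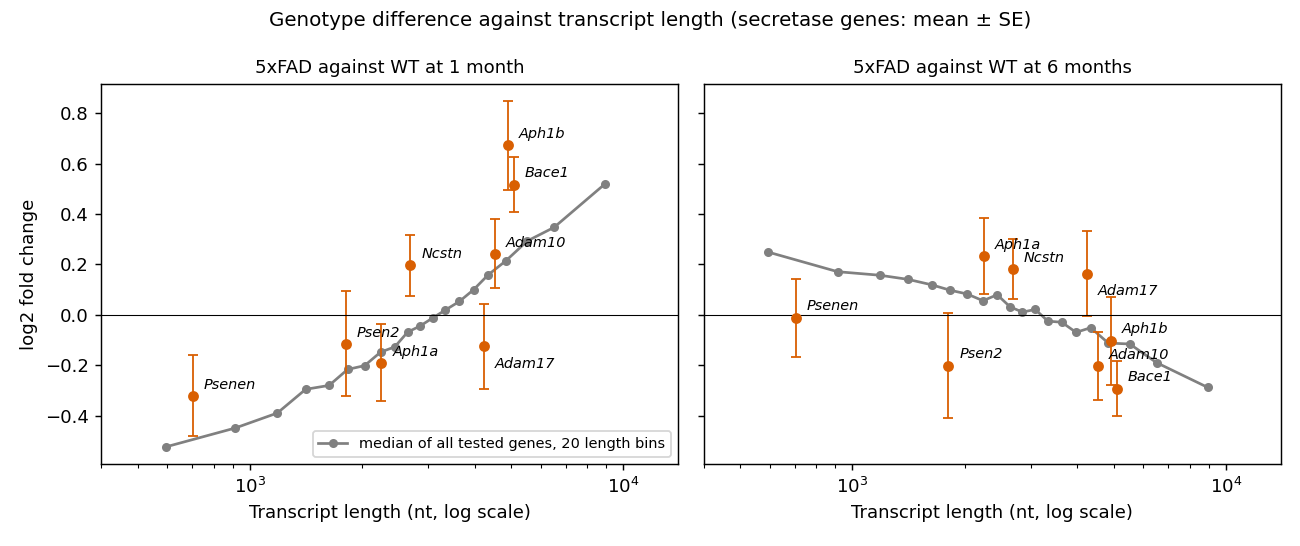
Log2 fold change of 5xFAD against WT (y axis) against transcript length in nt (x axis, log scale) at 1 month (left) and 6 months (right). Grey points are medians of all tested genes in 20 length bins, and orange points with SE bars are the secretase genes. At 1 month the medians climb with length and Bace1 and Aph1b lie above the line, and at 6 months the line slopes the other way.

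The alpha secretase genes passed no test. Adam10, the main constitutive alpha secretase of neurons and also the protease that cuts Notch after ligand binding, held 49.4, 48.8 and 52.7 CPM in the 1-month WT libraries against 51.9, 68.2 and 58.4 CPM in the 5xFAD ones of that age. The 6-month libraries gave 58.3, 56 and 52.2 CPM (WT) and 40.3, 44.5 and 59.7 CPM (5xFAD). The groups overlapped at both ages, and 5xFAD replicate 3 at 6 months stood well above its 2 fellow libraries. The log2 fold change was 0.24 ± 0.14 at 1 month (adjusted p = 0.230) and -0.20 ± 0.14 at 6 months (adjusted p = 0.433), with an interaction of -0.44 ± 0.19 (adjusted p = 0.0951). Without 5xFAD replicate 3 at 6 months Adam10 passed as lower at 6 months (-0.42, adjusted p = 0.0465), with age in 5xFAD (-0.51, adjusted p = 0.00797) and in the interaction (-0.68, adjusted p = 0.00594), so that single library decides these calls. Its 2 fellow libraries had the largest ribosomal RNA shares of all 12 (1.11% and 0.446%, against 0.0525% in replicate 3). Omission of the 3 libraries richest in ribosomal RNA gave 0.10 at 6 months and -0.11 in the interaction. That leaves replicate 3 as the only library of 5xFAD at 6 months. Removal of the length and GC trend gave -0.054 at 6 months (adjusted p = 0.849) and -0.026 in the interaction (adjusted p = 0.938).

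Adam17, the protease that also sheds tumour necrosis factor alpha, held 31.2, 34.6 and 25.3 CPM in the 1-month WT libraries against 31.1, 31.8 and 20.6 CPM in the 5xFAD ones of that age. Libraries of 6-month retina gave 28.2, 27.1 and 24.8 CPM (WT) and 31.1, 28.6 and 30.03 CPM (5xFAD). Both 6-month groups were tight and did not overlap, but the log2 fold change of 0.16 ± 0.17 did not pass (adjusted p = 0.647). At 1 month the groups overlapped, with a log2 fold change of -0.12 ± 0.17 (adjusted p = 0.662). Adam17 shares 311 bases, 4.35% of its exon bases, with Iah1, a gene on the other strand that stood at 7.60 ± 1.58 CPM in WT and 6.12 ± 0.597 CPM in 5xFAD at 1 month and was not called in any comparison (lowest adjusted p 0.161).

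Bace1 passed in 3 of the 5 comparisons. It held 91.9, 89.1 and 81.5 CPM in the 1-month WT libraries against 125, 122 and 128 CPM in the 5xFAD ones of that age. Every 5xFAD library stood above every WT library, with little spread inside each group. The log2 fold change was 0.52 ± 0.11 (adjusted p = 0.00182), higher in 3 of 3 libraries. For the older groups the values were 113, 115 and 102 CPM (WT) and 85.5, 77.1 and 107 CPM (5xFAD), where 5xFAD replicate 3 lay within the WT range. The log2 fold change at 6 months was -0.29 ± 0.11 and did not pass (adjusted p = 0.116). Without that library it was -0.47 and passed (adjusted p = 0.00651). The 2 libraries then left in the group had the most ribosomal RNA of all 12 (1.11% and 0.446%, against 0.0525% in replicate 3). Removal of the length and GC trend gave -0.13 at 6 months (adjusted p = 0.434). Omission of the 3 libraries richest in ribosomal RNA gave -0.046, with replicate 3 then the only library of 5xFAD at 6 months.

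The change of the Bace1 genotype difference between the ages passed the interaction test (-0.81 ± 0.16, adjusted p = 0.000502). Within 5xFAD, Bace1 fell from 125 ± 3.07 to 89.8 ± 15.3 CPM between 1 and 6 months (-0.48 ± 0.11, adjusted p = 0.00292). Within WT the means were 87.5 ± 5.40 CPM at 1 month and 110.0 ± 7.0 CPM at 6 months, without overlap, and the log2 fold change of 0.33 ± 0.11 had an adjusted p of 0.0565. That value passed by DESeq2 (adjusted p = 0.0338) and under 5 other alternatives. It did not pass with the length and GC trend removed (0.22, adjusted p = 0.140). In whole-tissue RNA a change in how many cells of a type are present and a change in RNA per cell cannot be told apart.

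With the length and GC trend removed, the Bace1 difference at 1 month was 0.29 (adjusted p = 0.0443) and the interaction -0.42 (adjusted p = 0.0247). With the replicate number as a block in that same fit, the 1-month difference no longer passed (0.29, adjusted p = 0.0579). The fall with age in 5xFAD became -0.21 and no longer passed (adjusted p = 0.144). Without the 3 libraries richest in ribosomal RNA the fall was -0.22, from 1 library of 5xFAD at 6 months. Summed marker levels of some cell types did not overlap between the genotypes at 1 month, where 19.6% of all tested genes were called. No share of all genes without overlap is given. The 5 endothelial genes came to 168 to 199 CPM in WT and 260 to 295 CPM in 5xFAD libraries, the 4 pericyte genes to 39.4 to 72.0 and 76.4 to 96.6 CPM, the 5 bipolar cell genes to 998 to 1139 and 1178 to 1264 CPM, and the 6 rod genes to 45977 to 49481 and 51550 to 55238 CPM. The 4 lens genes, only 1 of them with a mean of at least 1 CPM, came to 0 to 0.629 CPM in WT and 4.95 to 44.6 CPM in 5xFAD. Lower in 5xFAD were the 8 pigment epithelium genes (61.5 to 130 CPM in WT, 16.1 to 31.0 CPM in 5xFAD), the 4 cone genes (1078 to 1306 and 846 to 1011 CPM) and the 5 microglial genes (21.1 to 26.4 and 14.6 to 19.3 CPM). Of the 8 pigment epithelium genes only 3, and of the 4 pericyte genes 3, had a mean of at least 1 CPM. At 6 months the endothelial sum was lower in 5xFAD (193 to 231 CPM in WT, 143 to 153 CPM in 5xFAD). So was the bipolar sum (1012 to 1215 and 964 to 984 CPM), and both had been higher at 1 month. The rod sum (41984 to 45298 and 50419 to 54599 CPM) and the lens sum (0.202 to 0.299 and 0.426 to 1.05 CPM) stayed higher in 5xFAD. The cone sum turned the other way, to higher in 5xFAD (900 to 990 and 1202 to 1351 CPM). Pericyte, pigment epithelium and microglial sums overlapped at 6 months. Some sums that had overlapped at 1 month did not overlap at 6 months. Lower in 5xFAD were then the 4 Muller genes (2855 to 3150 CPM in WT, 2617 to 2765 CPM in 5xFAD) and the 4 amacrine genes (481 to 509 and 435 to 477 CPM). Higher were the 3 red blood cell genes, 2 of them with a mean of at least 1 CPM (7.07 to 11.8 and 14.1 to 19.9 CPM). Of the 8 lists that differed at 1 month, no defining marker was at 0 in all libraries. The part of these cells in the Bace1 difference was not tested.

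**Figure D3:**
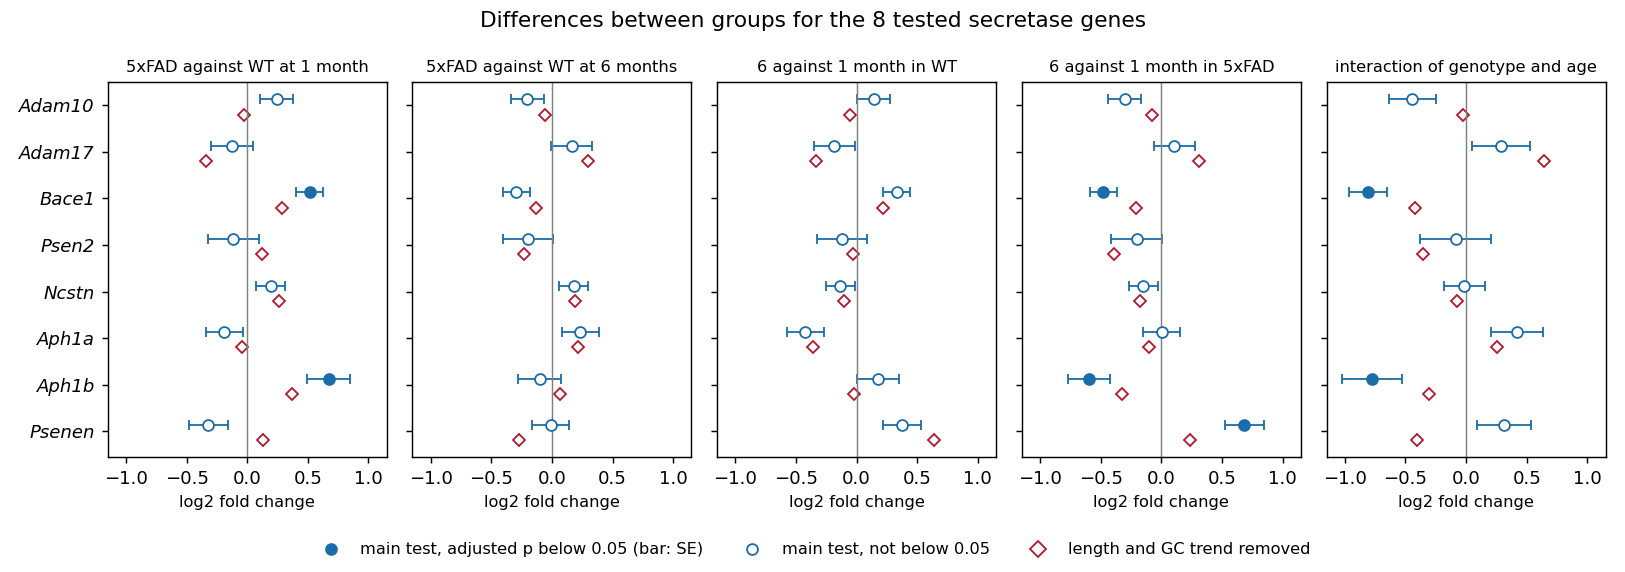
Log2 fold change (x axis) of the 8 tested secretase genes (rows) in the 5 comparisons (panels). Circles with SE bars are the main test, filled where the adjusted p was below 0.05, and diamonds are values with the length and GC trend removed. Bace1 and Aph1b are filled on the right at 1 month and on the left with age in 5xFAD and in the interaction, and their diamonds lie nearer to 0 in those panels.

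Bace1 (chr9:45838580-45864399, plus strand) shares exon sequence with 3 genes on the minus strand. The 3′ end of Rnf214, a RING finger gene, overlaps the last exon of Bace1 tail to tail over 975 bases (chr9:45863425-45864399), which is 15.4% of the annotated Bace1 exon bases. The predicted gene Gm49338 overlaps Bace1 exons over 951 bases in 3 blocks (15%), and the antisense RNA Gm16536 over 135 bases (2.13%). The labelled kit does not mark strand, so in these stretches reads of Bace1 and of its neighbours cannot be told apart.

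Rnf214 and Gm49338 differed between the groups in the same direction as Bace1. Rnf214 held 36.6, 27.6 and 36.9 CPM in the 1-month WT libraries against 70.6, 64.0 and 64.7 CPM in the 5xFAD ones of that age, without overlap (0.98 ± 0.15, adjusted p = 8.98e-05). At 6 months the libraries gave 55.1, 65.1 and 41.0 CPM (WT) and 34.1, 37.4 and 35.4 CPM (5xFAD) (-0.59 ± 0.15, adjusted p = 0.0180). Its interaction, -1.57 ± 0.21 (adjusted p = 1.09e-05), was larger in size than that of Bace1. Gm49338 held 16.6, 14.6 and 17.5 CPM in the 1-month WT libraries against 30.6, 27.9 and 24.9 CPM in the 5xFAD ones of that age (0.78 ± 0.18, adjusted p = 0.00281), with an interaction of -1.24 ± 0.25 (adjusted p = 0.000747). Gm16536 differed the other way, at 27.4 ± 2.05 CPM in WT and 20.1 ± 2.63 CPM in 5xFAD at 1 month (-0.45 ± 0.17, adjusted p = 0.0637), with an interaction of 0.79 ± 0.24 (adjusted p = 0.0159). With the length and GC trend removed, Rnf214 (0.94, adjusted p = 5.09e-05) and Gm49338 (0.93, adjusted p = 0.000788) still passed at 1 month and in the interaction (-1.49, adjusted p = 5.56e-06, and -1.41, adjusted p = 0.000201), Rnf214 also at 6 months (-0.55, adjusted p = 0.0124), while the Gm16536 interaction did not (0.62, adjusted p = 0.0625).

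The deposited counts hold a trace of how such overlaps were treated. Expected counts are fractional where reads are divided among genes. Of 9209 genes with a mean of at least 100 counts and no exon overlap, 87.1% had whole counts (within 1e-06) in all 12 libraries. Of 912 genes that overlap only opposite-strand exons by at least 200 bases, 90.2% had whole counts, against 3.0% of 233 genes with such an overlap on the same strand. Most of these genes thus had no reads divided with the opposite strand, and Bace1 itself had whole counts in all 12 libraries. Which gene received the reads of the shared Bace1 stretches is not shown by the counts.

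**Figure D4:**
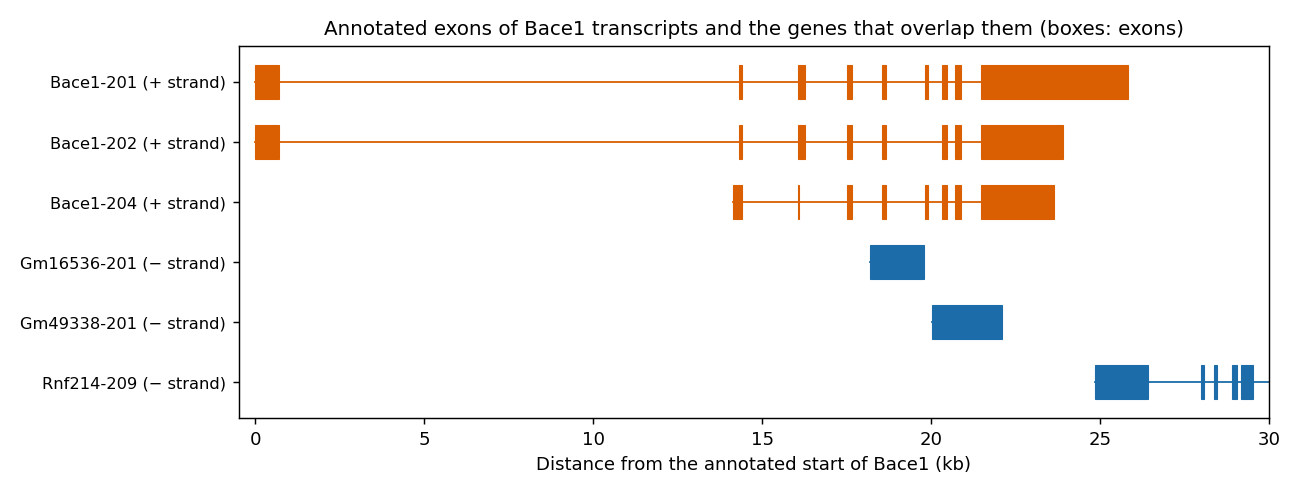
Annotated exons (boxes) of the 3 Bace1 transcripts with the most counts and of the most abundant transcript of each overlapping gene, against distance from the annotated start of Bace1 in kb (x axis). The first box of Rnf214 lies under the end of the last Bace1-201 exon, beyond the ends of Bace1-202 and Bace1-204, and Rnf214 continues to the right of the plot.

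**Figure D5:**
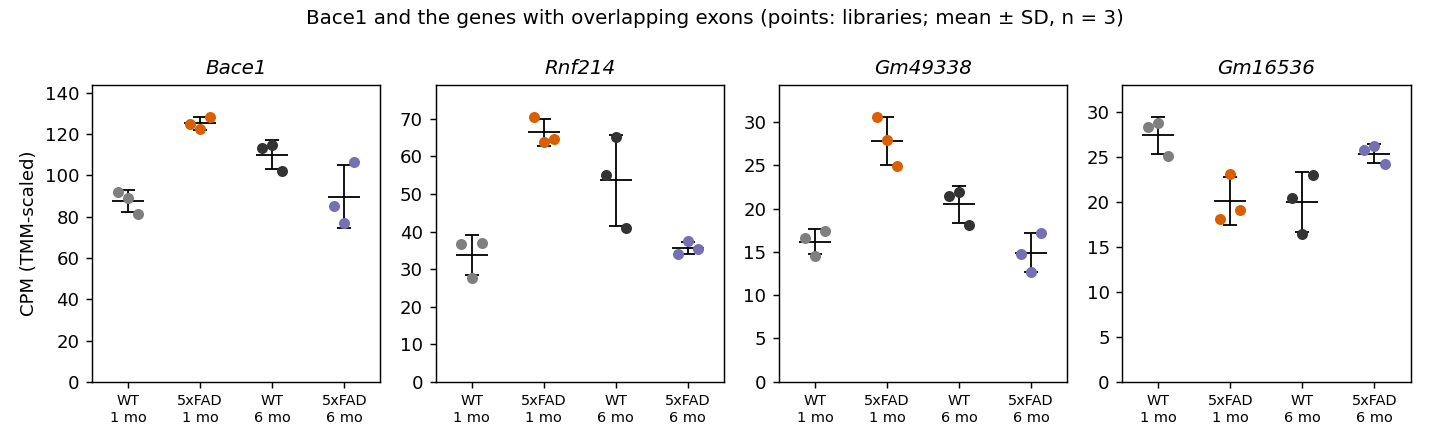
Level in CPM (y axis, from 0) of Bace1 and the 3 genes with overlapping exons, by group (x axis). Points are libraries, and bars are the mean ± SD of 3. Rnf214 and Gm49338 are high in 5xFAD at 1 month as Bace1 is, and Gm16536 is lower there than in WT at 1 month.

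Bace1 counts were assigned mainly to Bace1-201 and to the retained-intron transcript Bace1-204, which held 28% of them. Bace1-204 shares 2981 of its 3146 bases with Bace1-201. Bace1-201 held 57.6, 58.5 and 63.3 CPM in the 1-month WT libraries against 64.3, 73.3 and 72.0 CPM in the 5xFAD ones of that age, and 80.3, 78.5 and 76.7 CPM in WT and 57.4, 49.4 and 66.7 CPM in 5xFAD at 6 months. Its libraries did not overlap between the genotypes at either age, 5xFAD being above WT at 1 month and below it at 6 months. Of 56 annotated transcripts of the 9 genes, 24 could be tested, and Bace1-201 in the interaction was called (-0.73 ± 0.17, adjusted p = 0.0325), where 6.05% of all transcripts were called. No member transcript was called in the 4 other comparisons (background 2.52%, 0.488%, 0.916% and 3.12%, in the order used above), where 2, 3, 4 and 4 had an unadjusted p below 0.05 and DESeq2 called 1, 2, 1 and 2. These background shares are for edgeR's adjusted p, and none is given for the unadjusted or DESeq2 counts. The Bace1-201 interaction lost its call with the replicate number as a block, and with each of 10 of the 12 libraries left out.

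The exon-skipping transcript Bace1-202 carried 30.02, 9.58 and 21.4 CPM in 5xFAD at 1 month, against 1.85, 0 and 2.12 CPM in WT at 1 month. In the 6-month groups it carried 6.41, 11.4 and 0 CPM in WT and 0, 3.8 and 0 CPM in 5xFAD. The 1-month groups did not overlap, but the spread between libraries was wide and the difference did not pass (edgeR adjusted p = 0.427). Bace1-202 has no base that Bace1-201 lacks, so only the junction printed above is its own. The 2017 bases it lacks are exon 6 and the far end of the last exon, where Rnf214 overlaps. Bace1-204 took 30.3% ± 7.74 of the Bace1 counts in WT and 26.8% ± 5.15 in 5xFAD at 1 month, and 23.0% ± 1.83 and 33.1% ± 3.69 at 6 months.

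The share of retained-intron transcripts, which the study's design names as a readout, could be tested for Adam17, Bace1, Psen2, Ncstn and Aph1a. None of the 5 was called by edgeR in any comparison (background 2.93%, 0.189%, 0.44%, 2.89% and 7.67% of 4772 genes), nor by limma on the logit of the share. At an unadjusted p below 0.05 edgeR gave 0, 0, 0, 0 and 1 of the 5, and limma 1, 0, 0, 1 and 1, with no background share for these counts. The 1 from edgeR was Adam17 in the interaction (log2 odds ratio -2.21 ± 0.78, adjusted p = 0.113). Its share was 8.37% ± 3.62 in WT and 16% ± 1.97 in 5xFAD at 1 month, and 14.9% ± 3.57 and 7.97% ± 3.34 at 6 months, from 15 to 79 counts per library. Counts of Adam17 moved between near-identical transcripts from library to library. In 5xFAD at 6 months the 3 libraries put 26.7, 0 and 0 CPM on Adam17-207, 0, 27.2 and 0 CPM on Adam17-203, and 0, 0 and 26.8 CPM on Adam17-201.

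Bace2 was near the detection limit in whole retina. At 1 month its expected counts were 3, 4 and 19 in WT against 2, 15 and 5 in 5xFAD, and at 6 months they were 11, 15 and 3 against 0, 0 and 7. It failed the low-count filter and no difference was testable at this depth. A count of 0, as in 2 libraries, still allows up to 3 counts from counting error alone.

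The genes of the gamma secretase gave 3 that passed in none of the comparisons (Psen2, Ncstn and Aph1a) and 2 that passed in some (Aph1b and Psenen). Psen2 held 20.6, 23.2 and 14.9 CPM in the 1-month WT libraries against 15.5, 17.0 and 21.6 CPM in the 5xFAD ones of that age. The 6-month libraries gave 13.7, 19.4 and 20.9 CPM (WT) and 14.2, 17.5 and 15.3 CPM (5xFAD). Its groups overlapped throughout, and the lowest adjusted p over the 5 comparisons was 0.529.

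Ncstn, the nicastrin subunit that receives the substrate, held 44.7, 52.4 and 49.1 CPM in the 1-month WT libraries against 53.9, 56.8 and 56.7 CPM in the 5xFAD ones of that age. The groups did not overlap, but the log2 fold change of 0.20 ± 0.12 did not pass (adjusted p = 0.271). Libraries of 6-month retina gave 45.7, 46.0 and 41.6 CPM (WT) and 57.2, 48.7 and 45.2 CPM (5xFAD), with overlap (0.18 ± 0.12, adjusted p = 0.419). Ncstn shares 195 bases at its start with Copa, a coatomer gene on the other strand. Copa stood at 248 ± 4.89 CPM in WT and 285 ± 8.47 CPM in 5xFAD at 1 month, without overlap. Its log2 fold change of 0.20 ± 0.08 (adjusted p = 0.0845) had the direction and size of that of Ncstn, and it was not called in any comparison. The part of Copa in the Ncstn counts was not tested.

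Aph1a, the main Aph1 scaffold subunit here, held 47.2, 41.4 and 47.6 CPM in the 1-month WT libraries against 42.2, 32.0 and 45.2 CPM in the 5xFAD ones of that age. For the older groups the values were 31.2, 31.1 and 39.4 CPM (WT) and 40.1, 45.6 and 34.0 CPM (5xFAD). In WT the 2 ages did not overlap (-0.42 ± 0.15, adjusted p = 0.0771), and without WT replicate 3 at 6 months that difference passed (-0.54, adjusted p = 0.0374). Its last exon overlaps 445 bases of Car14, a carbonic anhydrase gene on the other strand, which is 12.9% of the Aph1a exon bases. Car14 fell from 73.5 ± 3.24 CPM in WT to 43.6 ± 5.59 CPM in 5xFAD at 1 month (-0.75 ± 0.12, adjusted p = 0.000122; -0.53, adjusted p = 0.00232, with the length and GC trend removed), and its part in the Aph1a counts was not tested.

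Aph1b held 14.2, 18.4 and 14 CPM in the 1-month WT libraries against 23.4, 26.8 and 24.1 CPM in the 5xFAD ones of that age. Every 5xFAD library lay above every WT library (0.67 ± 0.18, adjusted p = 0.00845, higher in 3 of 3). At 6 months the libraries gave 18.6, 16.5 and 17.7 CPM (WT) and 16.1, 15 and 18 CPM (5xFAD), with overlap (-0.10 ± 0.17, adjusted p = 0.807). Within 5xFAD it fell with age (-0.60 ± 0.17, adjusted p = 0.0155), and the interaction was -0.77 ± 0.25 (adjusted p = 0.0238). With the length and GC trend removed, the difference at 1 month was 0.37 (adjusted p = 0.198), the change with age in 5xFAD -0.33 (adjusted p = 0.236) and the interaction -0.30 (adjusted p = 0.458), so none passed. The change with age in 5xFAD also lost its call without 5xFAD replicate 2 at 1 month (-0.54, adjusted p = 0.0687). So it did without 5xFAD replicate 2 at 6 months (-0.54, adjusted p = 0.0555). The interaction lost its call without 5xFAD replicate 2 at 1 month (-0.72, adjusted p = 0.0604) and without WT replicate 1 at 6 months (-0.78, adjusted p = 0.0535). Omission of the 3 libraries of highest ribosomal RNA share leaves 1 library of 5xFAD at 6 months. It gave -0.44 with age in 5xFAD and -0.77 in the interaction.

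Reads common to Aph1b and Aph1c make the Aph1b level uncertain, and Aph1b had fractional counts in all 12 libraries. Aph1c itself read 1.75 to 7.16 CPM and passed in no comparison (lowest adjusted p 0.229). The sum of both genes was 17.7, 20.9 and 15.8 CPM in WT and 26.4, 28.5 and 29.2 CPM in 5xFAD at 1 month, which did not overlap, and 21.1 ± 2.08 and 22.0 ± 1.93 CPM at 6 months. Some Aph1b counts in 5xFAD at 1 month went to Aph1b-203, a transcript of the nonsense-mediated decay class with a 253-base stretch of its own (chr9:66788199-66788451). It carried 3.14, 9.53 and 1.06 CPM there and 0 in each library of WT at 1 month and of 5xFAD at 6 months, and did not pass (adjusted p = 0.141 at 1 month). The protein-coding Aph1b-201 had 15.6 ± 2.17 CPM in WT against 19.9 ± 2.87 CPM in 5xFAD at 1 month (0.38 ± 0.21, adjusted p = 0.403).

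Psenen, the smallest subunit, held 28.3, 30.2 and 30.6 CPM in the 1-month WT libraries against 20.7, 27.3 and 23.3 CPM in the 5xFAD ones of that age. The groups did not overlap, 5xFAD being below WT, but the log2 fold change of -0.32 ± 0.16 did not pass (adjusted p = 0.170). The 6-month libraries gave 37.8, 34.1 and 43.6 CPM (WT) and 35.2, 46.5 and 32.9 CPM (5xFAD), with full overlap (-0.01 ± 0.16, adjusted p = 0.980). Within 5xFAD Psenen rose with age (0.68 ± 0.16, 1.61-fold, adjusted p = 0.00326), and in WT the change was 0.37 ± 0.16 (adjusted p = 0.137). The difference between these age changes was 0.31 ± 0.22 (adjusted p = 0.339). With the length and GC trend removed the order was turned round, at 0.24 in 5xFAD (adjusted p = 0.331) and 0.64 in WT (adjusted p = 0.00490). Without the 3 libraries richest in ribosomal RNA, which leaves 1 library of 5xFAD at 6 months, the rise in 5xFAD was 0.49. Psenen overlaps U2af1l4 over 119 bases and Gm49396 over 111, but no stretch is shared between transcripts that reach a mean of 1 CPM.

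Balances within a library do not depend on library scaling, but a trend on transcript length can remain in them. The log2 ratio of Bace1 to Adam10 counts was 0.80 ± 0.15 in WT and 1.08 ± 0.22 in 5xFAD at 1 month, and 0.99 ± 0.04 and 0.90 ± 0.16 at 6 months. Neither genotype difference passed a two-sided exact permutation test (p = 0.3 and 0.4, where 3 against 3 cannot go below 0.1). Aph1a made up 85.2% ± 2.7 of the summed Aph1a, Aph1b and Aph1c TPM in WT and 78.0% ± 3.81 in 5xFAD at 1 month. Those groups did not overlap and gave the smallest exact permutation p, 0.1, or 0.32 after adjustment over the 8 such comparisons. Aph1a (mean 2249 nt) belongs to the middle length class and Aph1b (4917 nt) to the longest. The part of the length trend in this share was not tested. At 6 months the share was 78.1% ± 5.88 in WT and 81.4% ± 2.02 in 5xFAD (exact permutation p = 0.6).

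A list of 60 further genes of the pathway gave context, of which 59 were found and 56 tested. It was chosen with earlier results of these data known, so its shares only describe the listed genes. At 1 month 10 were higher in 5xFAD (17.9% of 56, against 10.7% of all genes) and 2 lower (3.57%, against 8.91%). Of the 24 tested substrates, 7 (29.2%) were higher and none lower, with a median log2 fold change of 0.29. Of these 24 genes 15 belong to the longest class, in which 27.0% of all genes were called higher, with a median of 0.25. The called substrates included the cell adhesion genes Cdh2 (92.6 ± 7.39 CPM in WT, 124 ± 8.22 CPM in 5xFAD, 0.42 ± 0.10) and L1cam (0.42 ± 0.12), the APP homologue Aplp2 (0.27 ± 0.08) and Notch2 (0.63 ± 0.19). Of 23 partners and sorting factors, the APP sorting receptor Sorl1 was higher (0.87 ± 0.11), and the retrieval receptor Rer1 (-0.39 ± 0.11) and the Adam10-partner tetraspanin Tspan17 (-0.50 ± 0.17) were lower. Among 9 related proteases Adam9 (0.44 ± 0.09) and Ece1 (0.49 ± 0.16) were higher. With the length and GC trend removed, 5 of the 56 were higher (Adam9, Aplp2, App, Prnp and Sorl1), where 4.95% of all genes were. Only 1 (Jag1) was lower, where 6.47% of all genes were.

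At 6 months 0 of these 56 genes were higher and 4 lower in 5xFAD (7.14%, against 3.89% of all genes). The 4 were L1cam (-0.48 ± 0.12), Cdh2 (-0.36 ± 0.10), the Bace1 substrate Sez6l (-0.45 ± 0.13), and Mme, the amyloid-degrading protease neprilysin, at 2.44 ± 0.748 CPM in WT and 0.0947 ± 0.164 CPM in 5xFAD (edgeR adjusted p = 0.0287). With the trend removed 2 of the 56 were lower (L1cam and Mme), where 2.78% of all genes were. Jag1 alone was higher, where 5.53% of all genes were. With age in WT 3 rose and 3 fell (5.36% each, against 6.01% and 4.49% of all genes), which is near the background. Those that rose were Sorl1 (0.50 ± 0.11), the Adam17 inhibitor Timp3 (0.41 ± 0.12) and Adam9 (0.45 ± 0.09), and those that fell were Rhbdf2, which carries Adam17 to the cell surface (-0.71 ± 0.22), Aplp1 (-0.37 ± 0.10) and Sez6 (-0.37 ± 0.11).

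With age in 5xFAD 4 rose and 15 fell (26.8%, against 12.4% of all genes), 12 of the 15 being substrates (50% of 24, where 30.4% of all genes of the longest class fell). With the trend removed 5 of the 56 rose and 6 fell, 5 of the 6 being substrates (Aplp2, Cdh2, Cx3cl1, L1cam and Sez6l), against 8.86% and 5.41% of all genes. The sodium channel subunit Scn2b, cut by Bace1, fell by 0.50 ± 0.12 and Sez6l fell by 0.69 ± 0.14, while Rer1 (0.53 ± 0.11) and Rtn4 (0.27 ± 0.08) rose. In the interaction 5 were higher and 17 lower (30.4%, against 13.3% of all genes), among them Cdh2 (-0.79 ± 0.14), L1cam (-0.90 ± 0.17), Sez6l (-0.83 ± 0.19) and Scn2b (-0.70 ± 0.17). There too the longest class had a larger share called lower (32.2%), and with the trend removed 3 were higher and 6 lower (11.1% and 7.28% of all genes), with Cdh2 and L1cam among the 6 and Sez6l and Scn2b not. The genotype comparisons and age comparisons share libraries, so these lists are not independent of each other.

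To show which genes ran most like a member, the root mean square difference of centred log2 CPM over the 12 libraries was taken against 9921 genes that averaged 10 CPM or more. For Bace1 the nearest were Enah (0.056), Vezf1 (0.065) and Secisbp2l (0.077), where the median gene was at 0.32. Rnf214 ranked 3391 of the 9921, at 0.27. The measure also counts the size of a change, and a gene that did not vary at all would be at 0.24. Group means of Rnf214 were 33.7 (WT) and 66.4 CPM (5xFAD) at 1 month, and 53.7 and 35.6 CPM at 6 months. These had the same order as the Bace1 means, so the rank does not show whether the 2 genes differed in direction. Enah, an actin regulator, ran at 129 CPM in WT and 182 CPM in 5xFAD at 1 month and at 164 and 127 CPM at 6 months. For Adam10 the nearest were Depdc5 (0.078), Lgr5 (0.091) and Trak2 (0.092), and for Psenen, less closely, Ndrg2 (0.13), Emc6 (0.15) and Ranbp1 (0.16).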

How the data were processed

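Polyadenylated RNA of 12 whole-retina libraries was measured. Both deposited tables, for genes and for transcripts, give raw expected counts as the authors made them. Per the submitters' processing notes, RSEM (1.3.3), STAR (2.7.1a), Trim Galore (0.6.6) and DESeq2 (1.32.0) were used with build GRCm38.p6, with no role stated for each. The annotation is not given in the sources used here. Identifiers were matched to GENCODE M21 (55227 of 55487 genes, 141469 of 142699 transcripts), which gave symbols, exons, lengths and sequences.

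Expected counts were rounded and fitted in R 4.3.3 with edgeR 4.0.16 (TMM, filterByExpr by group, robust quasi-likelihood test, all 12 libraries, 8 residual degrees of freedom), for 16233 genes and 45326 transcripts. The SE is the absolute log2 fold change over the square root of F. The interaction is the 5xFAD-minus-WT difference at 6 months minus that at 1 month. Retained-intron shares were fitted on paired columns with a mean of at least 10 counts each, for 4772 genes. TPM came from transcript counts and annotated lengths. Transcript CPM were taken on column totals. Sequences were aligned with Biopython 1.88, and scipy 1.17.1 gave exact permutation tests. The steps were tested on simulated data.

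All 9 members, Aph1c and every gene with exons overlapping a member were named. From the pathway list up to 4 called genes per sublist and comparison with the smallest p were named, and for likeness the 3 nearest genes. Members and lists were chosen with earlier results of these data known. Some results are not reported here. Totals were 10.9 to 19.6 M counts per library. The chi-square per degree of freedom between replicates was 4.05 to 26.7, so no library was a copy of another. Counting error is smaller than that spread.

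Removal of the length and GC trend for pathway and overlapping genes was added after seeing the data. Alternatives were DESeq2 1.42.0 (Wald test, size factors), library size alone, other filters, a fit of 6 libraries, the replicate number as a block, removal of each library's length and GC trend (splines, 4 degrees of freedom, lengths for 99.9% of tested genes), each library left out, omission of the 3 libraries with the most ribosomal RNA (5xFAD at 6 months then has 1 library, assumed to vary like the others), and for shares limma 3.58.1.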

Additional observations from a re-analysis of the deposited data

Results flagged for a closer look

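The Bace1 genotype difference was not the same at 1 and 6 months. Its interaction of genotype and age was -0.81 (edgeR adjusted p = 0.000502), from 0.52 at 1 month to -0.29 at 6 months. It kept its call under all 21 alternatives run, between -1.0 and -0.42.

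The Aph1b genotype difference also changed between the ages. Its interaction was -0.77 (edgeR adjusted p = 0.0238), from 0.67 at 1 month to -0.10 at 6 months. It kept its call under 16 of 21 alternatives, between -0.92 and -0.30.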

How the results depend on the processing

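Limits come first. The depth of 10.9 to 19.6 M counts leaves Bace2 untestable, the gene-level calls rest on 3 libraries a group, and transcript-level values rest on how the authors' software assigned shared reads. The length and GC alternative and the removal of libraries rich in ribosomal RNA were the settings that ended most member calls, and the cause was not tested. Of 7 called member values, the 1-month calls of Bace1 and Aph1b held under 15 and 14 of 16 alternatives, the falls with age in 5xFAD of Bace1 and Aph1b under 13 and 11 of 16, the Psenen rise under 13 of 16, and the interactions of Bace1 and Aph1b under 21 and 16 of 21.

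With the length and GC trend removed, 1 member was higher at 1 month, 1 (Psenen) higher with age in WT, 0 higher and 0 lower with age in 5xFAD, and 1 lower in the interaction. Together with the replicate block these counts were 0, 1, 0 and 0, and 1, with 1 (Adam17, 0.64) higher in the interaction. Bace1 made 1 member higher with age in WT by DESeq2, with all genes of at least 1 count, with at least 1 CPM in 3 samples, in the fit of 6 samples and with the 3 libraries highest in ribosomal RNA omitted. Without those libraries 0 members were higher and 0 lower with age in 5xFAD and 1 was lower in the interaction. With each library left out, members lower ranged from 0 to 2 at 6 months, 0 to 1 (and higher 0 to 1) with age in WT, 1 to 3 with age in 5xFAD and 1 to 3 in the interaction.

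For transcripts, DESeq2 called 1, 2, 1, 2 and 2 in the 5 comparisons (main counts 0, 0, 0, 0 and 1). No share of all transcripts called by DESeq2 is given beside these counts. With libraries left out the count ranged from 0 to 1 at 6 months and 0 to 1 in the interaction.

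Values that did not pass and changed sign were as follows. Aph1a with age in 5xFAD (main 0.00) was -0.010 by DESeq2 and with its size factors, -0.0060 and -0.0058 under the 2 other filters, -0.0088 in the fit of 6 samples, -0.0027 with library size alone, -0.11 with the trend removed, -0.092 with the block as well, and -0.21 without the libraries rich in ribosomal RNA. With the trend removed (and with the block as well in parentheses), Adam10 was -0.028 (-0.030) at 1 month and -0.050 (-0.045) with age in WT, Psen2 0.12 (0.11) and Psenen 0.13 (0.12) at 1 month, Aph1b 0.069 (0.068) at 6 months and -0.024 (-0.014) with age in WT, and Psenen -0.40 (-0.40) in the interaction. Without the libraries rich in ribosomal RNA, Aph1b was 0.034 and Adam10 0.10 at 6 months, Psen2 0.018 at 1 month and 0.032 with age in WT, and Adam10 0.019 with age in 5xFAD. With libraries left out, sign changes occurred within these ranges: Adam17 -0.23 to 0.051 at 1 month and -0.070 to 0.21 with age in 5xFAD, Aph1a -0.13 to 0.10 with age in 5xFAD, Ncstn -0.16 to 0.0075 in the interaction, Psen2 -0.26 to 0.026 at 1 month, -0.24 to 0.075 with age in WT and -0.29 to 0.059 in the interaction, and Psenen -0.18 to 0.085 at 6 months.

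Over all genes, counts called moved by more than 1.5 times at 1 month (3178) to 1854 with the trend removed, 1734 with the block as well and 1893 to 2097 without WT or 5xFAD replicate 2; at 6 months (1035) to 501 in the fit of 6 samples, 321 without the libraries rich in ribosomal RNA and 276 to 1687 without single libraries; with age in WT (1705) to 780 to 846; with age in 5xFAD (3772) to 2317, 2188 and 1947; and in the interaction (4054) to 2354 without the libraries rich in ribosomal RNA.

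Replicate numbers did not pair the libraries. Same-numbered libraries had correlations of their deviations between -0.085 and 0.062 in 18 pairs, and 3 of 12 libraries correlated best with their own number. Alone, the replicate block changed no call of a member gene. Added to the fit with the trend removed, it ended the 1-month call of Bace1 (0.29, adjusted p 0.0443 to 0.0579) and gave one to Adam17 in the interaction (0.64, adjusted p 0.0565 to 0.0407). Alone, it ended the call of Bace1-201 in the interaction (0 transcripts called). The retained-intron counts stayed at 0, and the ratios moved by less than the spread between replicates, under their alternatives.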
